A study of Stylophora pistillata with 24 samples.

Results

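This comparison sets adult colonies of the reef coral Stylophora pistillata against the swimming larvae (planulae) released at the same depth, both taken from the natural mesophotic reef at 45 m. It uses 6 of the 24 libraries of the series, 3 of deep adults and 3 of deep planulae, chosen by their labels, and 25735 of the 33281 genes in the count table had enough counts to be tested. The other 18 libraries were adults and planulae from the natural reef at 5 m and juveniles that came from the shallow reef and were grown for 8 or 60 days at 5 m (controls) or 45 m (translocated). All libraries were made from poly(A) RNA of whole-organism tissue, so an adult sample holds the polyp tissue of a grown colony and a planula sample holds whole larvae. The series' design text calls the adults the parents of the planulae, but no label ties a planula sample to a colony. The question is which genes a coral uses as a settled, skeleton-building colony at depth and which it uses as a larva there. Adults and planulae differ in age, size, settlement and skeleton at once, and these cannot be told apart.

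Stylophora pistillata broods its larvae inside the polyp, and the planula that leaves the parent is already furnished with symbiotic algae. The planula is covered by motile cilia, swims on maternal reserves and searches for a place to settle, after which it becomes a polyp and starts to lay down an aragonite skeleton under its basal tissue. The polyp catches prey with stinging cells, digests it in the gastric cavity, divides to build a colony and, once mature, makes eggs and sperm.

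The libraries held 13.57 to 18.2 M counts in deep adults and 26.19 to 28.91 M in deep planulae (M is 1e6), so depth moved with stage. Levels are given as CPM, counts scaled to a total of 1e6, after trimmed-mean (TMM) scaling, are not divided by gene length and are compared only within a gene. Spearman correlations between libraries were 0.883 to 0.922 among deep adults, 0.949 to 0.98 among deep planulae and 0.741 to 0.79 between the stages. On principal components of the 6 libraries, the first (70.4% of variance) separated the stages and the second (14%) set deep adult 3 apart from deep adults 1 and 2. It is not stated if a group's 3 samples came from different colonies or broods. The p-values therefore describe scatter among libraries alone, part of which may be technical. That scatter was estimated from all 24 libraries of the series together, not from these 6 alone. In these bulk libraries fewer cells of a type and less RNA per cell cannot be told apart.

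Nearly as many genes were lower in the adult as were higher, but the rises were larger. With the quasi-likelihood test of edgeR and a Benjamini-Hochberg adjusted p below 0.05 over all genes tested, 11471 of 25735 genes were called (44.6%), 6155 higher in deep adults (23.9%) and 5316 lower (20.7%). The median log2 fold change was 2.66 among the genes called higher, -1.64 among those called lower and 0.134 over all genes tested. A change of more than 5 on the log2 scale was reached by 1104 of the genes called higher and 435 of those called lower. The called genes also held different shares of the counts in the 2 stages, a direction that follows from the calls themselves. Genes called lower in adults took 58.2 to 61.0% of all counts in a planula library and 27.5 to 27.8% in an adult library. Genes called higher took 20.1 to 28.6% in adults and 4.16 to 4.72% in planulae. The libraries of the 2 stages did not overlap for 12400 genes (48.2%), and 14645 genes reached 1 CPM in all 6 libraries.

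The split between higher and lower moved with the scaling. With TMM, 53.7% of the called genes were higher in adults. With library totals alone in its place the share was 73.4%, with 8841 genes called higher and 3209 lower, and the median over all genes moved from 0.13 to 0.61 on the log2 scale. With only the 6 libraries of this comparison fitted, 4034 genes were called higher and 3491 lower.

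**Figure D1:**
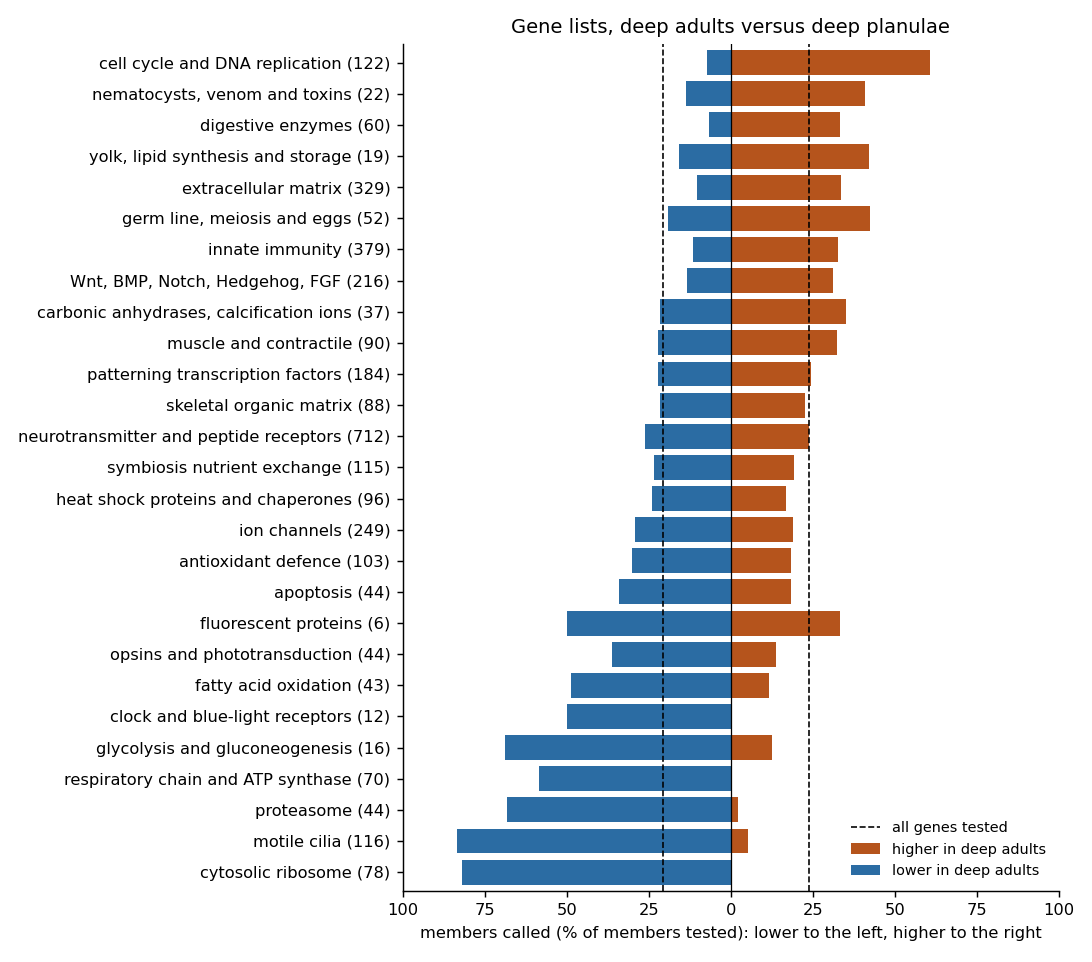
Share of the tested members of 27 gene lists called higher (right) or lower (left) in deep adults, in percent of members tested (number in brackets). Dashed lines mark the shares over all genes tested, 23.9% higher and 20.7% lower. Motile cilia and the cytosolic ribosome reach furthest to the left, and cell cycle and DNA replication furthest to the right.

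The genes of swimming were the group with the largest share called lower. Of 116 tested genes of motile cilia, 97 were lower in deep adults (83.6%, against 20.7% of all genes), 6 were higher and 13 were not called. Their median lay at -2.0 on the log2 scale. Their summed level was 4790 to 5540 CPM in the adult libraries and 20600 to 29700 CPM in the planula libraries, the direction the labels lead one to look for in a swimming larva. Each structural part of the cilium that was counted had most of its genes lower. Axonemal dyneins and the dynein regulatory complex, the motors and their regulators, had 25 of 31 genes lower and 1 higher. Intraflagellar transport, which carries material along the cilium, had 16 of 18 lower and none higher, radial spokes had 9 of 13 lower and 3 higher, and all 3 tektins were lower.

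Dynein regulatory complex protein 1 (gene8199) stood at 32.4, 39.8 and 39.7 CPM in deep adults 1, 2 and 3 and at 260, 313 and 360 CPM in deep planulae 1, 2 and 3. Each planula library was thus far above each adult library (log2 fold change -3.06, SE 0.19, adjusted p = 1.42e-09). Cilia- and flagella-associated protein 52 (gene11024), a part of the axonemal microtubules, gave 40, 45.7 and 38.4 CPM in adults and 275, 349 and 442 CPM in planulae (-3.10, SE 0.21). Intraflagellar transport protein 81 (gene9891) was lower by a smaller step, with 50.8, 55.4 and 45.9 CPM against 189, 250 and 196 CPM (-2.06, SE 0.14). Adults kept these genes at a low and even level rather than at 0, and the groups did not overlap.

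The 6 ciliary genes called higher, most of them named here after their values were seen, were flagellar creatine kinase (gene12018), dynein heavy chain 8 (gene10128), cilia- and flagella-associated protein 251 (gene10366), 2 genes for radial spoke head 1 (gene20721 and gene9930) and radial spoke head 10 B (gene2746). Flagellar creatine kinase, which in sea urchins supplies the sperm tail with energy, had 80.3 CPM in deep adult 1, 1.7 and 1.95 CPM in deep adults 2 and 3 and no count in planulae. Testis-specific serine/threonine-protein kinase 3 (gene2949), known from male germ cells of mammals, had the same distribution, with 70.3 CPM in deep adult 1, 1.62 and 0.894 CPM in the others and no count in planulae. Without deep adult 1 their log2 fold changes fell from 12.41 to 8.48 and from 12.2 to 7.96, and both stayed called.

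**Figure D2:**
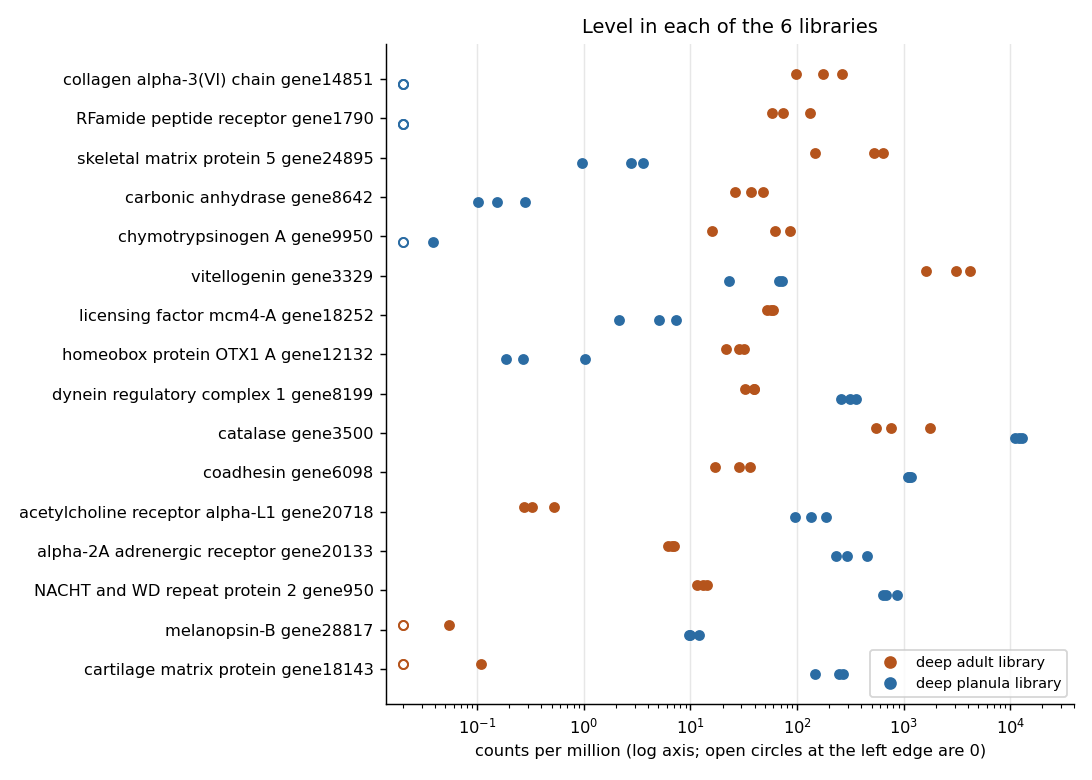
CPM (log axis) of 16 genes in each deep adult and each deep planula library, 1 point a library, with open circles for 0 counts. In all 16 genes the adult and planula libraries do not overlap, as for dynein regulatory complex 1 (32.4 to 39.8 CPM in adults, 260 to 360 CPM in planulae). The genes were picked from those named for small p or for lack of overlap, so this separation follows from the choice. Over all genes tested, 48.2% did not overlap.

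Of 712 receptors for peptides, amines and transmitters, 170 were higher in deep adults (23.9%) and 186 lower (26.1%), both near the shares over all genes, and 356 were not called. Differences between kinds of receptor were not tested. Peptide receptors had 82 of 248 higher and 52 lower (median 0.57 on the log2 scale), acetylcholine receptors had 9 of 53 higher and 17 lower (-0.3), and receptors for adrenaline, octopamine, dopamine, histamine and serotonin had 48 of 267 higher and 72 lower (-0.28).

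Some receptors were close to 0 in 1 stage. Acetylcholine receptor subunit alpha-L1 (gene20718), part of a transmitter-gated channel, had 0.272, 0.527 and 0.325 CPM in adults and 186, 134 and 95.1 CPM in planulae (-8.46, SE 0.39, adjusted p = 7.72e-11). The alpha-2A adrenergic receptor (gene20133), an amine receptor, stood at 7.02, 6.12 and 6.66 CPM in adults and 452, 292 and 232 CPM in planulae (-5.62, SE 0.27, adjusted p = 7.72e-11). Deep planula 1 was the highest and deep planula 3 the lowest library for both, and no adult library came near. The gene for subunit 2 of the GABA type B receptor (gene6990) had 1 count over the 3 adult libraries and 112 to 151 CPM in planulae, a ratio of 7230 (95% counting interval 1300 to 285000). A melatonin receptor type 1A (gene448) and the probable G-protein coupled receptor 19 (gene19806) had no count in adults and were at least 72.5-fold and 86.0-fold lower there, taking 3 counts per library as the floor.

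The reverse was seen for a receptor of RFamide peptides, a class of neuropeptides of cnidarian nerve cells. The pyroglutamylated RFamide peptide receptor gene1790 had 58.5, 133 and 73.6 CPM in adults and no count in any planula, at least 650-fold higher. Of 20 genes with that name, 6 were called higher and 5 lower, so the name alone does not mark a stage. Gene families of this kind have near copies, and how the authors' counting shared reads between copies is not given in the sources used here.

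Of 249 ion channels of excitable and sensory cells, 73 were lower in adults, 47 higher and 129 not called. The shares were 29.3% lower and 18.9% higher, against 20.7% and 23.9% of all genes. Acid-sensing ion channels had 10 of 25 lower and 2 higher, and the TRPA1 channels, which respond to chemicals and temperature in animals, had 10 of 24 lower and 3 higher. The acid-sensing ion channel 1C (gene13126) gave 6.47, 4.01 and 6.01 CPM in adults against 327, 253 and 198 CPM in planulae (-5.56, SE 0.38). A TRPA1 gene (gene7583) gave 3.05, 6.44 and 3.33 CPM against 170, 151 and 108 CPM (-5.05, SE 0.41). A voltage-gated sodium channel (gene203) gave 19.7, 19.9 and 19.0 CPM against 101, 112 and 114 CPM (-2.48, SE 0.20). None of these overlapped between stages. With library totals alone, the median of the channel list moved from -0.16 to 0.4.

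Of 44 opsins and phototransduction genes, 16 were lower in adults (36.4%, against 20.7% of all genes) and 6 higher (13.6%, against 23.9%), with a median of -0.71. With library totals alone 14 were lower and 11 higher, with a median of -0.26. With only the 6 libraries fitted, or against a fold of 2, 3 were higher, and without deep planula 3 it was 4. A melanopsin-B (gene28817), a light receptor protein, had 12, 9.8 and 9.73 CPM in planulae and 1 count in all adult libraries together, a ratio of 589 (95% counting interval 105 to 23300). Opsin-3 (gene22904) was lower by a smaller amount, with 0.598, 0.973 and 0.488 CPM in adults and 8.0, 6.87 and 5.07 CPM in planulae (-3.24, SE 0.49). Of 12 clock and blue-light receptor genes, 6 were lower and none was higher. Cryptochrome-1 (gene17590), a blue-light receptor and clock protein, stood at 254, 212 and 281 CPM in adults and 857, 758 and 848 CPM in planulae (-1.72, SE 0.18, adjusted p = 5.52e-07). The clock gene circadian locomoter output cycles protein kaput (gene4863) stood at 2.56, 2.84 and 3.33 CPM against 63.8, 53.6 and 35.1 CPM (-4.13, SE 0.32). The hour of sampling is not given in the sources used here, and its part in these clock values was not tested. With library totals alone, or with only the 6 libraries fitted, 2 clock genes were called lower in place of 6, and without deep adult 1 or deep planula 1 it was 3.

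Of the 6 fluorescent protein genes, all named for the chromoprotein amFP486 of sea anemones, 2 were higher, 3 lower and 1 not called. Without deep adult 1, or without any 1 of the deep planulae, 1 was called higher. Over all genes 23.9% were higher and 20.7% lower, and whether these 6 genes depart from that was not tested. The gene gene28123 had 849, 105 and 224 CPM in adults and 0.876, 2.41 and 0.973 CPM in planulae (8.11, SE 1.65, adjusted p = 5.91e-04), and deep adult 1 held most of it (6.85 without that library, 8.72 without deep planula 2). The gene gene22464 had no count in adults and 66.7, 25.2 and 1.74 CPM in planulae, at least 177-fold lower in adults. The 3 planula libraries were thus widely spread for it.

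The lists of energy metabolism and protein turnover had more members lower than higher in adults. Over all genes 20.7% were lower and 23.9% higher. Of 70 genes of the respiratory chain and ATP synthase, 41 were lower (58.6%) and none higher, with a median of -0.8. Glycolysis had 11 of 16 lower and 2 higher (-0.88), fatty acid oxidation 21 of 43 lower and 5 higher (-0.61), and the proteasome, which degrades proteins, 30 of 44 lower and 1 higher (-0.89). The succinate dehydrogenase flavoprotein subunit (gene22267), part of respiratory complex II, had 176, 186 and 231 CPM in adults and 804, 684 and 812 CPM in planulae (-1.96, SE 0.19, adjusted p = 1.98e-07). Carnitine O-acetyltransferase (gene16633), which moves acetyl groups in mitochondria and peroxisomes, had 68.9, 71.2 and 104 CPM against 530, 443 and 508 CPM (-2.60, SE 0.26). Glucose-6-phosphate isomerase (gene15638), the second enzyme of glycolysis, had 112, 81.0 and 129 CPM against 394, 318 and 483 CPM (-1.89, SE 0.22). In all 3 the planula libraries were above the adult libraries. The putative hexokinase HKDC1 (gene5060), which phosphorylates glucose, went the other way, with 18.6, 26.1 and 20.1 CPM in adults and 1.29, 2.37 and 1.43 CPM in planulae (3.67, SE 0.54).

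The protein-making machinery showed the same direction. Of 78 cytosolic ribosome genes, 64 were lower in adults (82.1%), none was higher and 14 were not called, with a median of -1.0. Ribosomal protein L10a (gene23030), of the large subunit, stood at 113, 90.2 and 162 CPM in adults and 262, 304 and 335 CPM in planulae (-1.30, SE 0.22, adjusted p = 8.49e-05). The summed level of the list was 43400, 20900 and 69100 CPM in deep adults 1, 2 and 3 and 64100, 88000 and 116000 CPM in deep planulae 1, 2 and 3, so deep adult 3 lay above deep planula 1. Elongation factor 1-alpha (gene10792), which brings aminoacyl-tRNA to the ribosome, had 3430, 2300 and 4390 CPM in adults against 7200, 7280 and 8010 CPM (-1.15, SE 0.23), and was not called with only the 6 libraries fitted or against a fold of 2.

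These counts depended on the fit and the scaling. With only the 6 libraries fitted, the number called lower was 1 for the ribosome, 14 for the respiratory chain and 9 for the proteasome, while the medians stayed at -0.98, -0.78 and -0.88. The ribosome count was 77 without deep adult 3 and 41, 32 and 29 without deep adult 1, deep adult 2 and deep planula 3. The proteasome count was 19, 18 and 17 without deep adult 1, deep adult 2 and deep planula 3. With library totals alone the counts were 35 for the ribosome, 28 for the respiratory chain and 19 for the proteasome, with medians of -0.58, -0.36 and -0.45. Tested against a fold of 2 they were 0, 3 and 2.

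**Figure D3:**
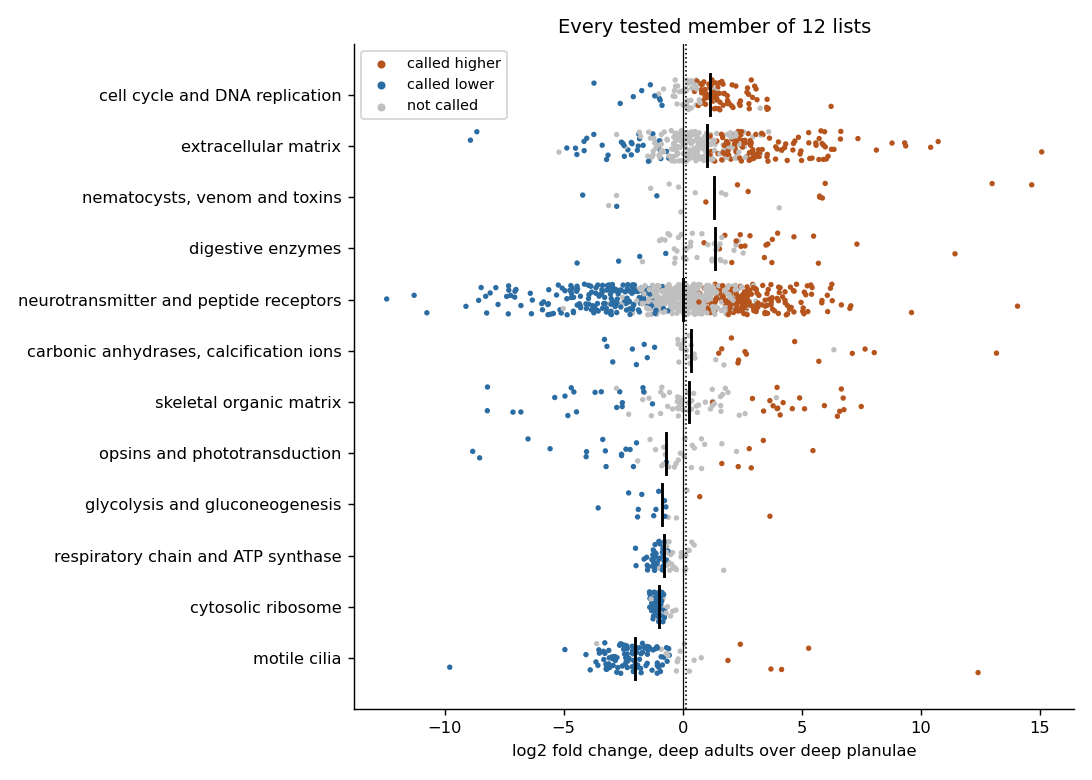
Log2 fold change, deep adults over deep planulae, of every tested member of 12 lists, coloured by call, with the list median as a black bar and the median over all genes (0.134) as a dotted line. Ribosome and respiratory chain genes lie close together around -1.0 and -0.8, whereas receptors and matrix genes spread over more than 10 log2 units.

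Defence against oxidants included catalase, one of the genes with the most counts in planulae. Of 103 antioxidant genes, 31 were lower in adults (30.1%, against 20.7% of all genes) and 19 higher (18.4%, against 23.9%). Catalase (gene3500), which breaks down hydrogen peroxide, gave 763, 547 and 1760 CPM in adults and 12100, 11100 and 12800 CPM in planulae (-3.55, SE 0.36, adjusted p = 2.80e-07, and -4.2 without deep adult 3). Peroxiredoxin-6 (gene14847), a peroxidase, gave 40.4, 25.5 and 42.1 CPM against 419, 550 and 281 CPM (-3.53, SE 0.38). Glutathione hydrolase 1 (gene13475), which cleaves glutathione outside the cell, was higher in adults, with 51.3, 43.4 and 70.4 CPM against 1.22, 1.21 and 1.54 CPM (5.38, SE 0.53). Heat shock proteins and chaperones had 23 of 96 lower (24%) and 16 higher, near the shares over all genes, or 39 lower without deep adult 3. Medians of both lists, of the apoptosis list and of the nutrient transporters described below turned positive with library totals alone (0.21, 0.11, 0.21 and 0.42).

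Programmed cell death genes had 15 of 44 lower (34.1%, against 20.7% of all genes) and 8 higher (18.2%, against 23.9%). Caspase-8 (gene10577), an initiator of apoptosis, had 4.41, 5.11 and 4.71 CPM in adults and 64.5, 69.2 and 63.9 CPM in planulae (-3.79, SE 0.26, adjusted p = 3.27e-09). Bcl-2-like protein 1 (gene24492), an inhibitor of apoptosis in mammals, was also lower, with 170, 170 and 180 CPM against 463, 592 and 833 CPM (-1.86, SE 0.22). Planula-high genes thus included an initiator and an inhibitor, and neither overlapped between stages.

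Genes of skeleton building were not simply higher in the adult. Of 88 skeletal organic matrix genes, which code for proteins found inside coral skeleton, 20 were higher (22.7%), 19 lower (21.6%) and 49 not called, close to the shares over all genes. The summed level of this list, used as a marker of calcifying tissue, was 2310 to 4150 CPM in adults and 8600 to 14100 CPM in planulae, which goes against its use as an adult marker. Uncharacterized skeletal organic matrix protein 5 (gene24895) had 532, 147 and 644 CPM in adults and 0.952, 3.62 and 2.76 CPM in planulae (7.50, SE 0.91, adjusted p = 2.49e-06). A gene for skeletal organic matrix protein 3 (gene24512) had 72.2, 59.5 and 49.5 CPM against 0.761, 0.975 and 4.35 CPM (4.91, SE 0.50, and 6.12 without deep planula 3). Coadhesin (gene6098), an adhesion protein known from coral skeleton, had 17, 36.4 and 28.4 CPM in adults and 1120, 1170 and 1100 CPM in planulae (-5.37, SE 0.40, adjusted p = 8.48e-09). These members, picked for small p, separated the libraries completely in either direction. Over all genes tested, 24.8% did so with adults higher and 23.4% with adults lower.

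Carbonic anhydrases interconvert carbon dioxide and bicarbonate. With ion transporters of calcification they had 13 of 37 higher (35.1%, against 23.9% of all genes) and 8 lower (21.6%, against 20.7%). The summed level of this list was nevertheless higher in planulae, at 2940 to 4260 CPM in adults and 5700 to 6810 CPM in planulae. A carbonic anhydrase (gene8642) gave 48.0, 37.0 and 26.2 CPM in adults and 0.152, 0.279 and 0.102 CPM in planulae (7.66, SE 0.72, adjusted p = 1.31e-07). Carbonic anhydrase 1 (gene25725) gave 173, 113 and 457 CPM against 6.24, 6.32 and 16 CPM (4.70, SE 0.57, 3.91 without deep adult 3 and 5.30 without deep planula 3). The rise of a carbonic anhydrase 2 (gene8644) rested on 1 library, with 142 CPM in deep adult 3, 0.653 and 0.811 CPM in deep adults 1 and 2 and no count in planulae (7.19 without deep adult 3, and not called with only the 6 libraries fitted). Sodium/calcium exchangers 2 (gene3796) and 3 (gene6602), which export calcium from cells, were lower in adults. Exchanger 2 had 24.8, 21.6 and 12.8 CPM against 211, 210 and 156 CPM (-3.28, SE 0.30). Exchanger 3 had 31.0, 33.6 and 27.0 CPM against 201, 221 and 278 CPM (-2.93, SE 0.35).

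Genes of prey capture and digestion had more members called higher than lower in the adult. Of 60 digestive enzyme genes, 20 were higher (33.3%, against 23.9% of all genes), 4 lower (6.67%) and 36 not called, with a median of 1.36. Of 22 genes named for venoms and toxins, 9 were higher (40.9%), 3 lower (13.6%) and 10 not called, with a median of 1.31. Anthrax toxin receptor 2 (gene21532), one of the 9, is not a toxin. Cathepsin B-like cysteine proteinase 4 (gene20517), a lysosomal type of protease, gave 198, 165 and 155 CPM in adults and 23.4, 27.4 and 22.1 CPM in planulae (2.83, SE 0.22, adjusted p = 1.20e-08). Chymotrypsinogen A (gene9950), a digestive protease precursor, gave 16, 62.5 and 86.7 CPM in adults and 1 count over the 3 planula libraries, a ratio of 3530 (95% counting interval 633 to 139000). Carboxypeptidase A2 (gene16388) was even within each stage, with 35.9, 38.9 and 39.1 CPM against 2.93, 3.85 and 3.28 CPM (3.50, SE 0.30). Carboxypeptidase B (gene16123) was instead lower in adults, with 0.598, 1.42 and 0.244 CPM against 21.4, 17.4 and 12.3 CPM (-4.43, SE 0.48, and -5.27 without deep adult 2).

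The toxin DELTA-stichotoxin-She4a (gene27671), named for a pore-forming protein of a sea anemone, had 969, 514 and 71.6 CPM in deep adults 1, 2 and 3 and 1 count in all planulae, a ratio of 38200 (95% counting interval 6850 to 1510000). The astacin-like metalloprotease toxin 5 (gene24061), a venom type of protease, had 110, 18.9 and 718 CPM and 2 counts in planulae, a ratio of 6890 (1910 to 56900). Deep adult 3 was lowest for the first and highest for the second, and every adult library lay above every planula library for both. The fitted log2 fold change of the second was 13, with 10.87 without deep adult 3 and 15.73 without deep planula 1, which held both planula counts. Phospholipase A2 A2-actitoxin-Cgg2a (gene25387) was a toxin gene lower in adults, with 0.761, 0.73 and 0.325 CPM against 10.6, 16.2 and 7.68 CPM (-4.20, SE 0.79).

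Yolk and lipid genes had 8 of 19 higher (42.1%, against 23.9% of all genes) and 3 lower (15.8%, against 20.7%). Vitellogenin (gene3329), the yolk protein precursor, gave 3090, 4150 and 1610 CPM in deep adults and 68.1, 71.7 and 23.2 CPM in deep planulae (5.76, SE 0.83, adjusted p = 1.89e-05). It was also high in juveniles, at 2880 ± 1260 CPM in 8-day controls and 2870 ± 1020 CPM in 60-day controls (SD, n = 3 libraries each). Apolipoprotein D (gene8824), a lipid carrier, went the other way, with 25.6, 14.9 and 11.8 CPM against 204, 271 and 248 CPM (-3.79, SE 0.37).

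Genes for exchange of nutrients with the symbiotic algae were mixed. Of 115, 22 were higher (19.1%), 27 lower (23.5%) and 66 not called, and the median of -0.08 changed sign with the scaling. Of 5 genes named putative ammonium transporter 1, which carries ammonium, 2 were lower in adults, 1 (gene13720) was higher and 2 were not called. One of those lower (gene13718) gave 82.2, 83.9 and 128 CPM in adults and 640, 440 and 609 CPM in planulae (-2.52, SE 0.27), and the other (gene13716) gave 10.4, 10.2 and 16.3 CPM against 103, 101 and 78 CPM (-2.94, SE 0.25). Of 23 genes named monocarboxylate transporter 10, 6 were higher and 8 lower. No gene in the annotated table had a name of dinoflagellate photosynthesis, so the algae themselves were not measured here.

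Most genes of cell division that were called were higher in adults. Of 122 cell cycle and DNA replication genes, 74 were higher (60.7%, against 23.9% of all genes), 9 lower and 39 not called, with a median of 1.15. DNA replication licensing factors and MCM helicases, which open the DNA for copying, had 9 of 15 higher and none lower (median 2.77), cyclins 10 of 14 higher and 3 lower, and centromere and kinetochore proteins 21 of 35 higher and 2 lower. Licensing factor mcm4-A (gene18252) stood at 51.9, 57.4 and 59.5 CPM in adults and 7.39, 5.02 and 2.15 CPM in planulae (3.53, SE 0.34, adjusted p = 1.52e-07). MCM3 (gene21731) stood at 36.8, 37.8 and 45.6 CPM against 6.21, 5.39 and 3.12 CPM (3.03, SE 0.32), and mcm7 (gene1278) at 34.3, 38.3 and 48.4 CPM against 5.44, 5.39 and 3.02 CPM (3.12, SE 0.35). Deep planula 3 was the lowest library for all 3. With only the 6 libraries fitted, 49 of the list were called higher, and 33 when tested against a fold of 2.

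Germ line and meiosis genes had 22 of 52 higher (42.3%, against 23.9% of all genes) and 10 lower (19.2%, against 20.7%). The summed level of the list, used as a marker of germ cells and eggs, was 1110 to 1350 CPM in adults. It was 2210 to 3670 CPM in planulae, which goes against its use as an adult marker. Genes of the synaptonemal complex and recombination, which act in meiosis, had 5 of 8 higher and none lower, and testis-specific kinases 3 of 5 higher and none lower. The members lower in adults included spermatogenesis-associated protein 17 (gene5340) and meiosis-specific nuclear structural protein 1 (gene6514), both known in mammals as parts of cilia or the sperm tail. The first gave 24.8, 21.1 and 21.0 CPM against 114, 146 and 157 CPM (-2.64, SE 0.19), and the second 52.4, 53.9 and 54.6 CPM against 318, 438 and 500 CPM (-2.96, SE 0.30). The germ line list had 11 members called higher with only the 6 libraries fitted and 13 without deep planula 3.

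Of 329 genes for collagens, laminins, integrins and matrix proteases, 111 were higher in adults (33.7%, against 23.9% of all genes), 34 lower (10.3%, against 20.7%) and 184 not called, with a median of 1.01. Their summed levels overlapped, at 16800, 16700 and 14200 CPM in deep adults 1, 2 and 3 and 11500, 14700 and 11600 CPM in deep planulae 1, 2 and 3. Hemicentins, long matrix proteins, had 36 of 73 higher and 2 lower, and collagens 31 of 85 higher and 6 lower. Laminins and integrins, which attach cells to the matrix, had 1 of 21 higher and 7 lower. Collagen alpha-3(VI) (gene14851), of the beaded filament collagens, gave 263, 96.8 and 176 CPM in adults and no count in planulae, at least 1310-fold higher. It was also near 0 in juveniles, at 0.38 ± 0.195 CPM in 8-day and 0.195 ± 0.131 CPM in 60-day controls (SD, n = 3). A collagen named CG42342 (gene20931) gave 85.9, 112 and 66.6 CPM against 0.19, 0.0464 and 0.154 CPM (9.32, SE 0.66, adjusted p = 3.83e-09). Of matrix genes lower in adults, a protease with thrombospondin motifs (ADAMTS type 16, gene23432) gave 0.109, 0.0811 and 0.813 CPM against 167, 105 and 70.7 CPM (-8.64, SE 0.83, and -10.19 without deep adult 3). Cartilage matrix protein (gene18143), an adaptor of matrix fibres in vertebrates, had 2 counts in adults and 245, 271 and 147 CPM in planulae, a ratio of 6230 (95% counting interval 1720 to 51400).

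Contractile genes had 29 of 90 higher (32.2%, against 23.9% of all genes) and 20 lower (22.2%, against 20.7%). Their summed level was nevertheless higher in planulae, at 6620 to 6850 CPM in adults and 9880 to 11300 CPM in planulae. Twitchin (gene10957), a giant protein of invertebrate muscle, had 8.81, 8.23 and 11.8 CPM in adults and 3 counts in planulae, a ratio of 207 (95% counting interval 70.4 to 1010). Titin (gene6625), its larger relative, had 119, 104 and 50.7 CPM against 17.7, 16.1 and 7.99 CPM (2.71, SE 0.30). Filamin-A (gene9884), which cross-links actin, and a non-muscle myosin heavy chain (gene199) were lower in adults. Filamin-A had 150, 138 and 190 CPM against 1530, 2130 and 1200 CPM (-3.35, SE 0.26), and the myosin had 68.6, 87.2 and 73.5 CPM against 450, 434 and 310 CPM (-2.38, SE 0.23).

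Of 379 immune recognition genes, 124 were higher in adults (32.7%), 44 lower (11.6%) and 211 not called, with a median of 0.79. Over all genes 23.9% were higher and 20.7% lower. TNF receptor-associated factors, adaptors of immune receptors, had 37 of 89 higher and 11 lower, and cGAS and STING genes, which sense foreign DNA in mammals, 10 of 26 higher and 2 lower. TNF receptor-associated factor 6 (gene9023) gave 13, 7.7 and 12.3 CPM in adults against 0.914, 1.07 and 1.59 CPM (3.21, SE 0.31). The smallest p of the list was nevertheless that of a gene lower in adults. NACHT and WD repeat domain-containing protein 2 (gene950) gave 11.6, 13.1 and 14.2 CPM in adults and 643, 688 and 866 CPM in planulae (-5.82, SE 0.32, adjusted p = 3.72e-10).

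Among patterning genes, homeobox, forkhead, SOX and T-box factors had 45 of 184 higher (24.5%), 41 lower (22.3%) and 98 not called, near the shares over all genes. Sox-3 (gene11833), a transcription factor of early and neural cells in animals, gave 115, 101 and 120 CPM in adults and 833, 724 and 858 CPM in planulae (-2.84, SE 0.20, adjusted p = 3.63e-09). Sox-17-alpha-A (gene16176), an endoderm factor in vertebrates, had 3 counts in adults and 9.75, 15.8 and 17.5 CPM in planulae, a ratio of 257 (95% counting interval 87.7 to 1250). Homeobox protein OTX1 A (gene12132), a head and brain factor in vertebrates, was higher in adults, with 28.5, 31.8 and 21.4 CPM against 0.267, 0.186 and 1.02 CPM (5.82, SE 0.47, and 6.86 without deep planula 3).

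Signalling by Wnt, BMP, Notch, Hedgehog and FGF had 67 of 216 higher (31.0%) and 29 lower (13.4%). Over all genes the shares were 23.9% and 20.7%. The summed levels of the list overlapped. They were 4420, 5050 and 3920 CPM in deep adults 1, 2 and 3 and 4710, 5100 and 5540 CPM in deep planulae 1, 2 and 3. FGF receptors had 25 of 62 higher and 7 lower. Protein Wnt-8a (gene21528), a secreted ligand, had 15.9, 43.2 and 19.3 CPM in adults and no count in planulae, at least 193-fold higher. Bone morphogenetic protein 6 (gene1358), a ligand, had 193, 281 and 149 CPM against 21.4, 21.1 and 29.9 CPM (3.10, SE 0.32). Fibroblast growth factor receptor 1-A (gene15668) was lower in adults, with 5.71, 6.0 and 5.85 CPM against 167, 106 and 81.8 CPM (-4.33, SE 0.36, adjusted p = 2.81e-08).

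The largest falls outside these lists were in enzymes and a trafficking protein. D-arabinono-1,4-lactone oxidase (gene15951), named for a yeast enzyme of ascorbate-like synthesis, had no count in adults and 318, 216 and 159 CPM in planulae, at least 1310-fold lower in adults. Early endosome antigen 1 (gene11094), which in mammals tethers endosomes, had 0, 0 and 0.569 CPM in adults and 1700, 1240 and 636 CPM in planulae. D-amino-acid oxidase (gene4676) had 0.925, 0.0405 and 0.0813 CPM against 228, 589 and 2100 CPM, the planula libraries differing widely among themselves (log2 fold change -11.42, -10.17 without deep planula 3 and -13.99 without deep adult 1, which held 17 of the 19 adult counts). At least 10 CPM in deep adults with no count in any deep planula was seen for 32 genes, and the reverse for 17. Among genes with no informative name, gene860 had 16.4, 1060 and 6.26 CPM in adults and none in planulae, a log2 fold change of 16.1 that was 11.1 without deep adult 2. SpisGene4475 had 2 counts in adults and 799, 741 and 619 CPM in planulae.

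Among the genes that took the most counts, c-Fos (gene5217), an immediate-early transcription factor, had 19300, 13600 and 15600 CPM in adults and 27100, 29200 and 29200 CPM in planulae (-0.82, SE 0.25, adjusted p = 0.012). Early growth response protein 1 (gene4767), another immediate-early factor, was higher in adults, with 8240, 8030 and 5640 CPM against 416, 1220 and 1790 CPM (2.68, SE 0.82, adjusted p = 0.0125). It was not called without deep planula 1, and c-Fos was not called with library totals alone or with only the 6 libraries fitted. Such genes respond to handling in many animals, and the part of collection in these values was not tested. Peroxidase mlt-7 (gene17232), a heme peroxidase, gave 1780, 319 and 1110 CPM in adults and 17900, 11700 and 9130 CPM in planulae (-3.59, SE 0.54), and soma ferritin (gene11073), an iron store, 2350, 1260 and 3750 CPM against 5840, 8370 and 13700 CPM (-1.92, SE 0.34).

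**Figure D4:**
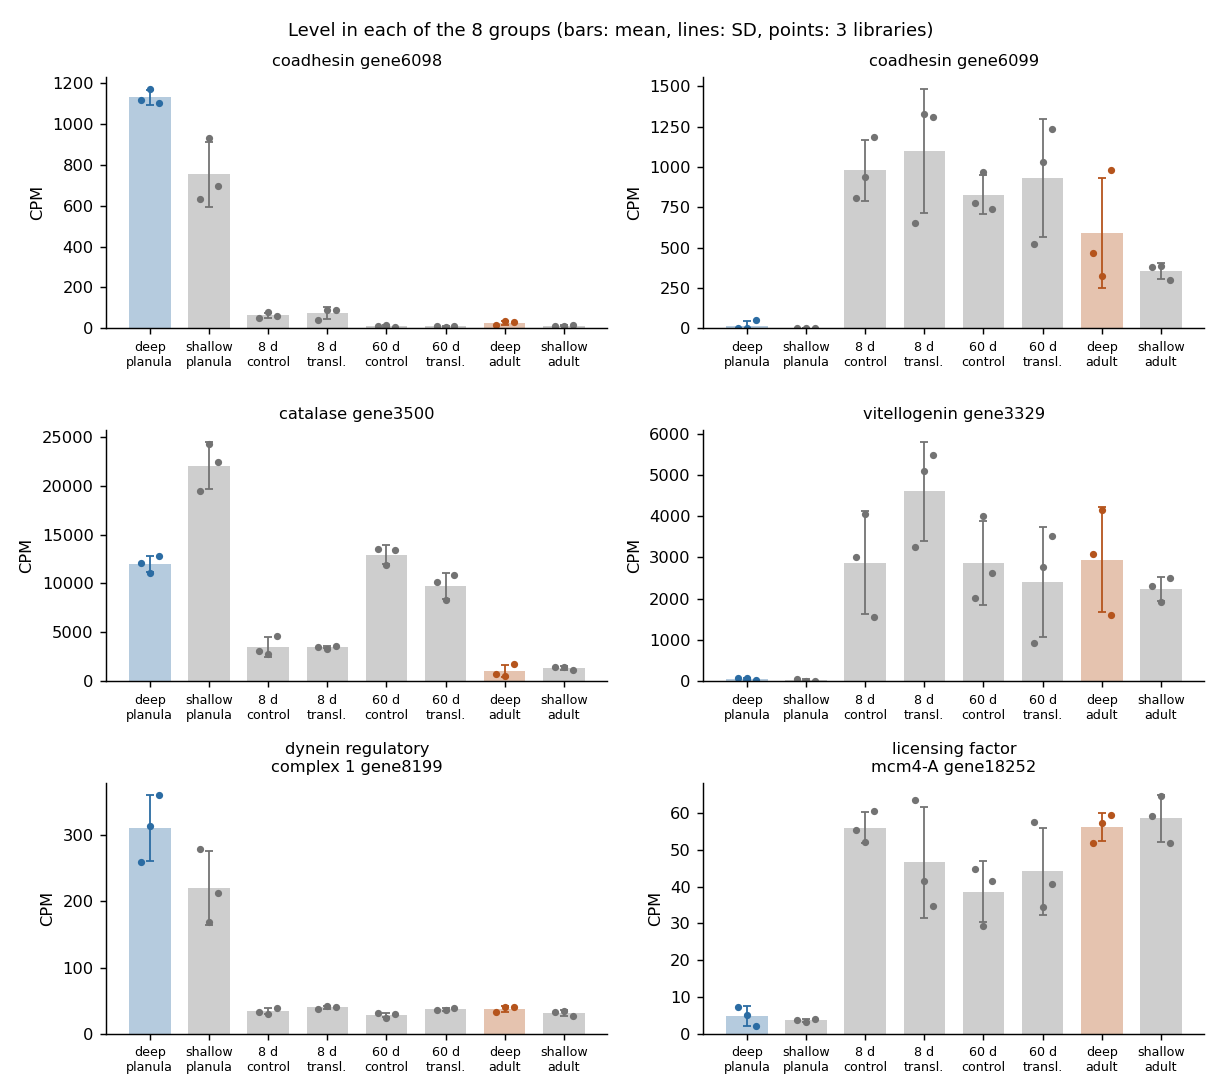
CPM of 6 genes in all 8 groups of the series (bars show the mean, lines the SD and points the 3 libraries), with deep planulae in blue and deep adults in brown. Dynein regulatory complex 1 is high in the 2 planula groups, whereas vitellogenin and licensing factor mcm4-A are already high in 8-day juveniles.

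The juveniles of the series show how far these differences had been crossed after settlement, with the reserve that all of them came from the shallow reef and grew in chambers. Of the 5316 genes called lower in deep adults, 70.9% had a mean in 8-day translocated juveniles nearer to deep adults than to deep planulae on the log2(CPM + 1) scale. Of the 6155 called higher, 47.8% did. At 60 days the shares were 70.0% and 51.4%. In control juveniles the share of genes called lower was 69% at 8 days and 65.5% at 60 days. For genes called higher it was 47.4% and 46.1%, so the rise with age seen in translocated juveniles was not seen in controls. Dynein regulatory complex protein 1 (gene8199) was at 39.7 ± 2.51 CPM in 8-day translocated juveniles (SD, n = 3), close to the 37.3 ± 4.27 CPM of deep adults. Catalase (gene3500) was at 3480 ± 148 CPM at 8 days and 9770 ± 1310 CPM at 60 days in the same juveniles, against 1020 ± 645 CPM in deep adults.

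The last question was whether the step from planula to adult differs between depths. The same stage comparison at 5 m used 6 other libraries and called 13975 genes (54.3%). Of the 11471 genes called at 45 m, 8025 were called in the same direction at 5 m (70.0% of the deep calls and 57.4% of the shallow calls) and 272 in the opposite direction. Tested directly, the stage difference differed between depths for 3328 genes (12.9%), 1635 more positive at 45 m (6.35%) and 1693 more negative (6.58%).

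The ribosome, respiratory chain, fatty acid, glycolysis and proteasome lists held genes whose stage step differed between depths, all in 1 direction. Of 78 cytosolic ribosome genes, 69 were more positive at 45 m and none more negative, the median stage difference being -1.0 at 45 m and -2.79 at 5 m. The respiratory chain had 38 of 70 more positive and none more negative (-0.8 and -2.0), and fatty acid oxidation 10 of 43 and none (-0.61 and -1.08). Glycolysis had 6 of 16 and none (-0.88 and -1.55), and the proteasome 8 of 44 and none (-0.89 and -1.72). Over all genes the medians were 0.134 and 0.352. The TMM factors were 0.5582 to 0.6262 in shallow planulae and 0.6763 to 0.9089 in deep planulae. How far these list counts move with the scaling was not tested. Ribosomal protein L10a (gene23030) stood at 122 ± 36.7 CPM in adults at 45 m and 127 ± 12.9 CPM at 5 m, and at 300 ± 36.7 CPM in deep and 1070 ± 215 CPM in shallow planulae (SD, n = 3; difference of log2 fold changes 1.77, SE 0.30, adjusted p = 0.00165). The matrix list leaned the other way, with 12 of 329 more positive and 37 more negative (1.01 and 2.05). Ciliary genes had 3 of 116 more positive and 6 more negative (-2.0 and -1.87), against 12.9% of all genes called in either direction.

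Single genes with a different stage step included caspase-8 (gene10577), kielin/chordin-like protein (gene11681) and cryptochrome-1 (gene17590). Caspase-8 was 65.8 ± 2.89 CPM in deep and 13.6 ± 3.98 CPM in shallow planulae, with adults at 4.74 ± 0.352 and 4.94 ± 0.668 CPM (difference -2.34, SE 0.34, adjusted p = 4.29e-04). Kielin/chordin-like protein, a modulator of BMP signals, fell by 3.69 on the log2 scale from planula to adult at 45 m and had a stage difference of -7.05 at 5 m (difference 3.36, SE 0.43, adjusted p = 1.63e-04). Cryptochrome-1 fell by 1.72 at 45 m and by 0.58 at 5 m (difference -1.15, SE 0.25, adjusted p = 0.00765). With only the 12 native libraries fitted the number of genes whose stage step differed between depths was 1187, and without single shallow libraries it was 2151 (shallow adult 1), 2049 (shallow adult 2), 2082 (shallow planula 2) and 1960 (shallow planula 3).

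**Figure D5:**
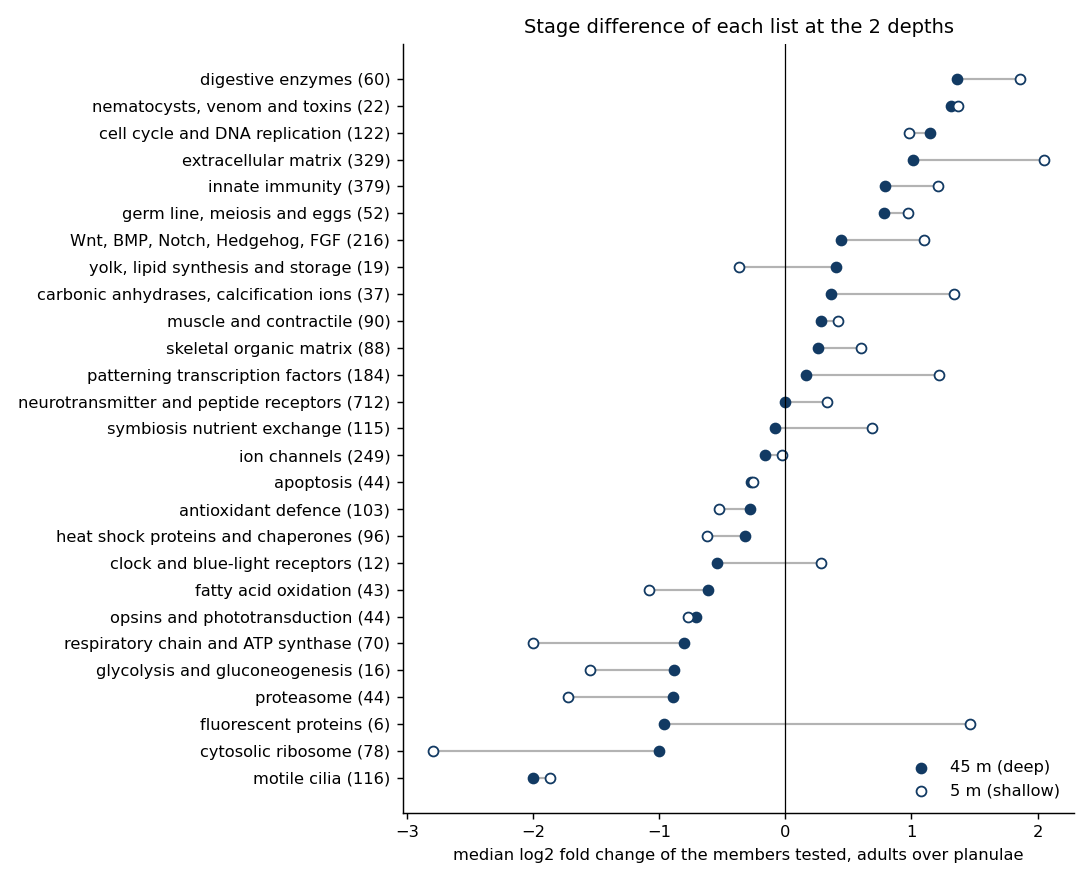
Median log2 fold change, adults over planulae, of the tested members of 27 lists at 45 m (filled) and 5 m (open). The cytosolic ribosome moves from -2.79 at 5 m to -1.0 at 45 m, while motile cilia stay near -2.0 at both depths.

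The authors' deposited table holds their own DESeq2 comparison of deep planulae and deep adults. Of 25011 genes with an adjusted p there that were also tested here, the authors' deposited table called 11300 and the present fit 11242. Both called 10426, 92.3% of the authors' and 92.7% of the present calls among these genes, all with the same sign. The authors' table gave no adjusted p for some genes called here. Among them were carbonic anhydrase 2 (gene8644), flagellar creatine kinase (gene12018), testis-specific serine/threonine-protein kinase 3 (gene2949), gene860, the CUB gene (gene1811) and the monocarboxylate transporter gene11839.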

How the data were processed

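Libraries were made from the poly(A) fraction, starting with 500 ng of RNA of integrity number above 7.7, and molecular identifiers were added before amplification, per the labels' protocols; whether they were used in counting is not stated. The authors deposited read counts per gene. The submitters' processing notes name FastQC, MultiQC, cutadapt, Trimmomatic and DESeq2, and no aligner, genome build or strand setting is named in the material at hand. The authors' deposited table also holds their DESeq2 log2 fold changes and adjusted p-values, used only for the comparison at the end of the report.

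All 24 libraries (8 groups of 3) were fitted together as 8 group means in R 4.3.3 with edgeR 4.0.16 (filterByExpr, TMM scaling, quasi-likelihood test, 16 residual degrees of freedom, two-sided, Benjamini-Hochberg adjusted p under 0.05). Limma 3.58.1 was loaded with edgeR, and DESeq2 1.42.0 was an alternative. The scripts were tested on simulated data. Members and gene lists, picked by words in product names, were chosen with earlier results of these data known. Named genes were the 10 largest rises and 10 largest falls (mean of at least 10 CPM, no overlap), the 2 largest of each without a name, up to 4 called genes of smallest p in each list, the 6 largest differences between depths in each direction, and the 5 called genes with the highest mean in each stage. Intervals (95%) and floors (3 counts) cover counting error only. Thinning all libraries to the smallest total was added after the data were seen.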

Additional observations from a re-analysis of the deposited data

Results flagged for a closer look

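The stage difference (adults minus planulae, log2) at 45 m departed from that at 5 m in the test of the difference for the 12 named genes below, each given as the value at 45 m minus the value at 5 m. Positive differences were 10.71 for leucine-rich repeats and immunoglobulin-like domains protein 2 (gene24536), 10.6 for spondin-1 (gene26965), 10.53 for monocarboxylate transporter 10 (gene11839), 10.4 for DELTA-stichotoxin-She4a (gene27671), 9.82 for a CUB domain-containing protein (gene1811) and 9.38 for M protein, serotype 5 (gene26970). Negative differences were -14.38 for the fluorescent protein amFP486 (gene22464), -12.87 for von Willebrand factor A domain-containing protein 7 (gene5744), -12.51 for cilia- and flagella-associated protein 58 (gene16792), -10.98 for an uncharacterized protein named for the hlyA region (gene5702), -10.77 for hemicentin-1 (gene13373) and -9.46 for guanylate-binding protein 6 (gene21949).

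The call of the difference was lost under 13 of the alternative settings for the CUB gene, 11 for monocarboxylate transporter 10, 10 each for cilia- and flagella-associated protein 58 and hemicentin-1, and 9 for leucine-rich repeats and immunoglobulin-like domains protein 2, among them settings that leave out 1 library. Cilia- and flagella-associated protein 58 had 4 counts in all deep libraries together and was not called at 45 m (adjusted p = 0.393), against 6.0, 51.8 and 55.7 CPM in shallow adults. Leucine-rich repeats and immunoglobulin-like domains protein 2 had 11.7, 0 and 22.2 CPM in deep adults, overlapping deep planulae (0.0381 to 0.665 CPM).

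Several of these rest on 1 library. Monocarboxylate transporter 10 had 31.4 CPM in deep adult 1 and 0.689 and 0.244 CPM in deep adults 2 and 3. Hemicentin-1 had 82.1 CPM in shallow adult 2 and 0.168 and 0.104 CPM in shallow adults 1 and 3. The CUB gene had 116 CPM in deep adult 3 and 2.45 and 4.05 CPM in the other deep adults. DELTA-stichotoxin-She4a was higher in all 3 deep adults (71.6 to 969 CPM) than in any shallow adult (2.57 to 16.8 CPM). Spondin-1 was at 63.6, 100 and 105 CPM in shallow planulae and at most 0.0464 CPM in deep planulae. M protein, serotype 5 had no count in shallow adults and 11.7 to 55.3 CPM in deep adults.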

How the results depend on the processing

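The number of genes called (11471) was 7525 with only the 6 libraries fitted and 5935 against a fold of 2 (glmTreat). Genes called higher (6155) were then 4034 and 3494, and genes called lower (5316) were 3491 and 2441, with 3209 under library totals alone. Genes whose stage step differed between depths (3328) were 5454 with library totals alone, 1187 with only the libraries of the groups compared and 496 against a fold of 2. Leaving out each library in turn gave 9804 to 12045 genes called, 5055 to 6335 higher, 4569 to 5710 lower and 1960 to 4294 differing between depths. Upper-quartile and RLE scaling, no filter or a stricter filter, DESeq2 and thinning stayed within 1.5 times of each count. No named gene that was called in the main fit changed direction in these alternatives. The cause of these shifts was not tested. Fitting only the 6 libraries left fewer degrees of freedom. It also repeated the filter, which kept 21932 genes, the scaling and the estimate of the spread.

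Replicate numbers are not shown to pair the samples. Same-numbered adult and planula libraries had deviation correlations of 0.0304, 0.115 and 0.232. Those with different numbers had -0.227 to 0.213. With the replicate block 11433 genes were called, 5997 higher and 5436 lower, and 3354 differed between depths. Adult libraries were shallower than planula libraries, and thinned to the smallest total 10689 genes were called.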

Other observations

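Of 1929 names carried by at least 2 tested genes, 450 (23.3%) had both a gene called higher and a gene called lower in deep adults. Some of these were neighbours in assembly jaStyPist1.2, and the pairs below were chosen after their values were seen. One coadhesin (gene6099) gave 468, 326 and 978 CPM in deep adults and 0.114, 0.372 and 50.6 CPM in deep planulae, while its neighbour (gene6098) was the planula-high coadhesin of the report. A myosin-2 essential light chain (gene3212) gave 39.3, 51.7 and 22.3 CPM in adults and 1.33, 0.975 and 1.43 CPM in planulae. Its neighbour of the same name (gene3213) gave 4.35, 4.38 and 1.79 CPM against 90.5, 70.5 and 88.2 CPM. Acyl-CoA desaturase, which makes unsaturated fatty acids, gave 336, 359 and 93.5 CPM against 14, 19.1 and 17.1 CPM for gene24411. The neighbouring gene24410 gave 2.39, 0.527 and 0.975 CPM against 17.8, 10.6 and 17 CPM. Of 146 neighbouring pairs with 1 name and both genes called, 110 went the same way and 36 opposite ways (24.7%). Over all 3190 neighbouring pairs with both genes called, 1074 went opposite ways (33.7%).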
